A study of Mus musculus with 6 samples.

Results

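Keratins and uroplakins were measured in ectopic endometriotic lesions of the mouse by RNA sequencing. Members were chosen by gene symbol alone, as every mouse gene named Krt with a number, every gene whose symbol begins with Upk1 or Upk2, and Upk3a. This gave 58 of the 56884 genes in the count table, of which 54 were keratins and 4 were uroplakins. By their usual site of expression, 5 keratins were assigned to simple epithelium (Krt7, Krt8, Krt18, Krt19 and Krt20), 18 to stratified epithelium, 24 to the root sheath and hair and 7 to no such group. The symbols use no measured value, but the family was put forward with results of these data known, so the comparisons between genotypes given here are descriptions of its members.

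The WT group was 3 lesions grown from uterine tissue of floxed donors (Dnmt3a f/f), and the KO group was 3 lesions from floxed donors that also carried Cre recombinase at the progesterone receptor locus (Dnmt3a f/f:PR-Cre/+). Both groups thus carried the floxed allele, and Cre was present only in the KO donors. Donors were females of 8 weeks of age that received 17β-estradiol, and recipients were syngeneic C57BL/6J females with an estradiol pellet, so that all host cells in either kind of lesion kept Dnmt3a. Deletion was limited to donor cells that expressed, or descended from cells that expressed, the progesterone receptor. Each lesion was 1 library made from whole tissue. The labels give a time of 4 weeks and injection of uterine fragments into the peritoneal cavity, whereas the study's methods give a shorter time and fragments sutured to the mesentery, and the sources do not settle which applied.

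Keratins are the intermediate filament proteins of epithelial cells. A type I keratin pairs with a type II keratin to form the filament, and the pair in use tells the kind of epithelium: KRT8 (type II) with KRT18 or KRT19 (type I) in simple epithelium such as the uterine lining and its glands, KRT5 with KRT14 in the basal layer of stratified epithelium, KRT4 with KRT13 in the upper layers of mucosal stratified epithelium, and KRT6 with KRT16 or KRT17 in skin after wounding. Uroplakins are membrane proteins of the urothelium, the lining of the bladder, where the tetraspanins UPK1A and UPK1B pair with UPK2 and UPK3A to form the plaques of the luminal surface. Some of them, UPK1B among them, are also made by the mesothelium that covers the peritoneal organs. DNMT3A adds methyl groups to cytosines that are followed by a guanine (CG).

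The keratin genes lay in a pair of clusters. On GRCm38 (GENCODE M21), 27 keratins lay on chromosome 11 between 99232761 and 100269871, and 27 on chromosome 15 between 101347444 and 102032027. Krt18 was the 1 type I gene in the chromosome 15 cluster and lay 23.7 kb from its partner Krt8. Since CG is the target of DNMT3A, the 250 bases before the RefSeq start (GRCm38.p6) were read for the members with a window, which were 38 of 58. The windows printed here, each 5′ to 3′ on the strand of its gene with every CG in capitals, are those of a pair of simple keratins whose shares of the keratin transcripts differed in opposite directions between the groups (Krt7 and Krt18) and of 2 members that were abundant in 1 lesion only (Krt5 and Upk3a).
Krt7 (chr15:101412153-101412402, plus strand): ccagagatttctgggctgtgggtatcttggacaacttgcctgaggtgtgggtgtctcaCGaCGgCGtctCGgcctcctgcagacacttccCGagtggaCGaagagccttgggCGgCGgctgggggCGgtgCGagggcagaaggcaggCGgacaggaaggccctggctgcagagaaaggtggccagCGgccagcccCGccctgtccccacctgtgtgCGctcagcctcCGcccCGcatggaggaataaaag
Krt18 (chr15:102027966-102028215, plus strand): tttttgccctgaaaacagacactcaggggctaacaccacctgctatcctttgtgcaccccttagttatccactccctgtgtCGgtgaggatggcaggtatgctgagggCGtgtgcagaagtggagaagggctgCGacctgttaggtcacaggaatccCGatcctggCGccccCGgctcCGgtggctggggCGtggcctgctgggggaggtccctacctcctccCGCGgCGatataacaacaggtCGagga
Krt5 (chr15:101712906-101713155, minus strand): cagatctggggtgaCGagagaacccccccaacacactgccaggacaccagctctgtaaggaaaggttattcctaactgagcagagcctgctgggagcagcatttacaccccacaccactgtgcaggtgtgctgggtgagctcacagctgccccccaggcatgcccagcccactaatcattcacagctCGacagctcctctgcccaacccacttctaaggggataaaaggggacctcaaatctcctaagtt
Upk3a (chr15:85016891-85017140, plus strand): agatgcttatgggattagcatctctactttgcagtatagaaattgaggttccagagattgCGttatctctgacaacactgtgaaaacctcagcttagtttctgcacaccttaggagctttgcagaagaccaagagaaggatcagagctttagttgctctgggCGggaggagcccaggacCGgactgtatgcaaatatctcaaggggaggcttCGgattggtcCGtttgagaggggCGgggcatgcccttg
The Krt7 window held 16 CG, that of Krt18 held 12, that of Upk3a held 6 and that of Krt5 held 2. Of the members not printed, the Krt8 window held 3 CG and the Upk1a window held 0. Over all 32851 windows the median was 6 CG and 92.1% held at least 1, while the median over the 39 windows of members was 4. At least 15 CG were present in 27.3% of all windows and in 1 member window, that of Krt7. The RefSeq and GENCODE M21 starts differ for some of these genes. The Krt7 window lies inside the GENCODE gene, which begins at 101411043. The windows of Krt18, Krt8 and Upk1a partly overlap their GENCODE genes. No methylation was measured in these lesions, and the counts of CG are a description of the sequence.

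Library totals were 45370342 to 57239184 counts. Dnmt3a was 52.7, 43.9 and 51.7 CPM (counts per 1000000 counts, after TMM scaling) in WT replicates 1 to 3 against 30.3, 33.5 and 36.2 CPM in KO replicates 1 to 3, so that the groups did not overlap (log2 fold change -0.57, SE 0.14, adjusted p = 0.321 by edgeR). The count covers the whole gene and host cells, and does not isolate the floxed part. Markers of uterine epithelium summed to 16367 to 48311 CPM and those of endometrial stroma to 1175 to 1644 CPM, none of which was at 0 in every library. The lesions differed in other tissue: 8 markers of skeletal muscle summed to 28299 and 30741 CPM in WT replicates 1 and 3 and to 4.52 to 14.7 CPM in the other lesions, 8 pancreatic acinar markers to 5605 CPM in WT replicate 3 and to at most 16.2 CPM elsewhere, and 8 neutrophil markers to 14305 CPM in WT replicate 2 and to 37.6 to 656 CPM elsewhere. In the other direction, 5 of 8 smooth muscle markers had every KO lesion above the WT range, with Cnn1 and Actg2 past the unadjusted threshold. So did 4 of the 8 endometrial stroma markers, with Esr1, Hoxa11 and Hand2 past it. Over all genes tested, 10.7% had every KO lesion above the WT range, and 3.1% passed the threshold as higher. Other genes of these lists had log2 fold changes below 0, none past the threshold: Des (-2.16), Pdgfra (-0.86) and Vim (-0.52). The stroma sum, which includes Vim (327 to 858 CPM) and Pdgfra (104 to 408 CPM), did not separate the groups.

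Simple-epithelium keratins made up most of the keratin transcripts of every lesion. The stratified keratins summed to 178 CPM in WT replicate 2 and to 27.2 to 44.5 CPM elsewhere. The uroplakins summed to 211 CPM in WT replicate 2, 120 CPM in KO replicate 2 and 6.32 to 32.3 CPM elsewhere. Of the 58 members, 13 had no count in any library, 24 had fewer than 10 counts over the 6 libraries, and 23 reached a mean of 1 CPM in WT or in KO lesions. The filter on low counts left 25 members to be tested. Of these, 1 was higher in KO lesions (Krt4) when the threshold was an unadjusted p-value under 0.05 together with a log2 fold change above 1, which is 4% against 3.1% of the 18177 genes tested. At the same p-value and a log2 fold change below -1, 3 were lower (Krt6a, Krt6b and Krt222), which is 12% against 5.85% of all genes. After Benjamini-Hochberg adjustment over all genes, 0 members and 0.0055% of all genes, which is 1 gene, were under 0.05 by edgeR's quasi-likelihood test, and the adjusted p-values of the members were 0.321 to 0.984. The Wald test of DESeq2, an alternative, gave 5.31% of genes an adjusted p-value under 0.05, and Krt4 (4.22e-06) and Krt6b (9.92e-05) were among them. At its own unadjusted threshold that test had 2 members higher (Krt4 and Krt17) against 2.82% of genes, and 4 lower (Krt78 with the 3 above) against 6.17%. The Wald test was run without the filter on low counts, on 29812 genes, so these counts are not out of the 25 members. It returned no p-value for Krt5, Upk1a, Upk2 and Upk3a. The median log2 fold change was -0.02 over the members tested and 0.01 over all genes, with 12 members above 0 (51.4% of all genes were above 0) and 13 below. Every KO lesion lay above every WT lesion for 1 member (4% against 10.7% of all genes), and the WT lesions all lay above the KO range for 2 (8% against 8.74%).

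**Figure D1:**
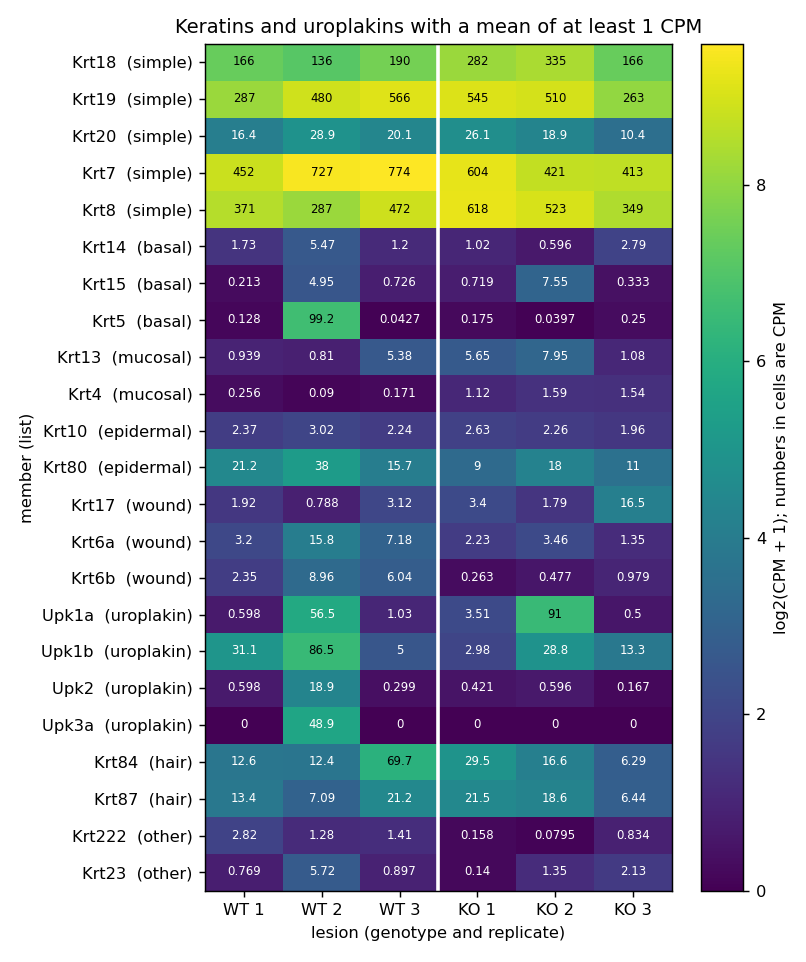
Level of the 23 members with a mean of at least 1 CPM in WT or KO, with 1 row for each member (its list in brackets) and 1 column for each lesion. Colour is log2(CPM + 1) and the numbers are CPM. The 4 most abundant simple keratins stand between 136 and 774 CPM in every lesion, whereas Krt5 and Upk3a are high in WT replicate 2 only and Upk1a in WT replicate 2 and KO replicate 2.

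The simple-epithelium keratins were abundant in all 6 lesions, Krt20 (10.4 to 28.9 CPM) less so than the others. None of the 5 passed the threshold in either direction. Their summed level was 1292, 1658 and 2022 CPM in WT replicates 1 to 3 against 2074, 1808 and 1201 CPM in KO replicates 1 to 3. WT lesions had a mean of 1657 ± 365 CPM and KO lesions of 1694 ± 447 CPM (SD, n = 3), and the lowest and the highest lesion were both KO. In bulk tissue, fewer epithelial cells and less keratin RNA in each cell cannot be told apart. Per kilobase of transcript, these 5 genes held 95.8%, 89.1% and 94.2% of all keratin CPM in WT and 96.6%, 96.1% and 95.4% in KO lesions. WT replicate 2 had the lowest share, and it is the lesion in which Krt5 was high.

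Krt7 (ENSMUSG00000023039.18, chromosome 15 from 101411043 to 101430313), the type II keratin of ducts and glands, was 452, 727 and 774 CPM in WT against 604, 421 and 413 CPM in KO lesions. The groups overlapped, since WT replicate 1 lay below KO replicate 1, and the log2 fold change was -0.44 (SE 0.28, adjusted p = 0.458 by edgeR). Krt8 (ENSMUSG00000049382.11, chromosome 15 from 101996698 to 102004482), the type II keratin first made in simple epithelium, was 371, 287 and 472 CPM in WT against 618, 523 and 349 CPM in KO lesions (log2 fold change 0.40, SE 0.29, adjusted p = 0.513). KO replicate 3 lay within the WT range. Krt18 (ENSMUSG00000023043.8, chromosome 15 from 102028180 to 102032027), the type I partner of Krt8, was 166, 136 and 190 CPM in WT against 282, 335 and 166 CPM in KO lesions, again with KO replicate 3 among the WT lesions (log2 fold change 0.67, SE 0.29, adjusted p = 0.348). Krt19 (ENSMUSG00000020911.15, chromosome 11 from 100140810 to 100148665), a type I keratin without a tail domain, was 287, 480 and 566 CPM in WT against 545, 510 and 263 CPM in KO lesions. Its group means were within 1 SD of each other, at 444 ± 143 CPM and 439 ± 154 CPM (SD, n = 3). Krt20 (ENSMUSG00000035775.3, chromosome 11 from 99428403 to 99438150), best known from gut epithelium and from umbrella cells of the urothelium, was 16.4, 28.9 and 20.1 CPM in WT against 26.1, 18.9 and 10.4 CPM in KO lesions (log2 fold change -0.24, SE 0.38, adjusted p = 0.774). Markers of intestinal epithelium summed to 1.04 to 4.31 CPM.

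Within the simple keratins, the share of Krt7 was higher in WT lesions and the share of Krt18 in KO lesions. Per kilobase of transcript, Krt7 held 17.4%, 21.4% and 19.1% of keratin CPM in WT and 14.0%, 10.6% and 17% in KO lesions, so the lowest WT lesion lay above the highest KO lesion. Krt18 held 18.3%, 11.4% and 13.4% in WT and 18.6%, 23.9% and 19.5% in KO lesions, so every KO lesion lay above every WT lesion, with WT replicate 1 and KO replicate 1 close to each other. The ratio of Krt7 to Krt8, both type II, was 0.582, 1.21 and 0.784 in WT and 0.468, 0.385 and 0.565 in KO lesions, and here too the groups did not overlap. For 3 lesions against 3 the smallest two-sided p-value of an exact permutation test is 0.1, so no such separation can pass 0.05, and these ratios were chosen after the levels were known. The ratio of Krt8 to Krt18 was 1.64, 1.55 and 1.82 in WT and 1.61, 1.15 and 1.54 in KO lesions, and summed type II to summed type I keratins was 1.03, 0.939 and 0.935 in WT and 0.868, 0.68 and 0.956 in KO lesions. The order of the genes themselves depended on the length used. By transcript length, Krt19 (mean 282 CPM per kb in WT and 279 in KO) and Krt8 (192 and 254) stood above Krt7 (159 and 117) and Krt18 (114 and 182), but the annotated Krt7 transcript is long (4094 bases, of which 1371 are coding). By coding length Krt7 stood first in WT lesions (475 CPM per kb against 368 for Krt19 and 256 for Krt8) and near both in KO lesions (350 against 363 and 338). The separation of the groups in the shares of Krt7 and Krt18 held with coding length as well.

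The level of Krt8 kept close to that of other epithelial transcripts, and those of Krt7, Krt19 and Krt20 varied more against them. The 8 epithelium markers (Cdh1, Epcam, Grhl2, Elf3, Esrp1, Cldn4, Cldn7 and Rab25, none at 0 in any group) summed to 1519, 1274 and 2097 CPM in WT against 2838, 2436 and 1369 CPM in KO lesions, with KO replicate 3 again within the WT range. Of the 8, 0 passed as higher and 1 as lower (Cldn4, a tight junction protein), with a median log2 fold change of 0.57. Divided by that sum, Krt8 was nearly constant, at 0.244, 0.225 and 0.225 in WT and 0.218, 0.215 and 0.255 in KO lesions. Krt7 on this scale was 0.297, 0.57 and 0.369 in WT and 0.213, 0.173 and 0.302 in KO lesions, and WT replicate 1 lay just below KO replicate 3. Krt18 was 0.109, 0.107 and 0.0905 against 0.0993, 0.137 and 0.121. Krt19 was 0.189, 0.377 and 0.27 in WT and 0.192, 0.209 and 0.192 in KO lesions. Krt20 was the 1 simple keratin whose groups separated, at 0.0108, 0.0227 and 0.00957 in WT and 0.0092, 0.00777 and 0.00762 in KO lesions. The summed simple keratins per marker sum were 1.04 ± 0.235 in WT and 0.783 ± 0.0816 in KO lesions (SD, n = 3), and these groups overlapped. A processed copy of Krt8 (Krt8-ps) was listed at 7.43 to 18.8 CPM, and reads that fit both could have been assigned to either.

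**Figure D2:**
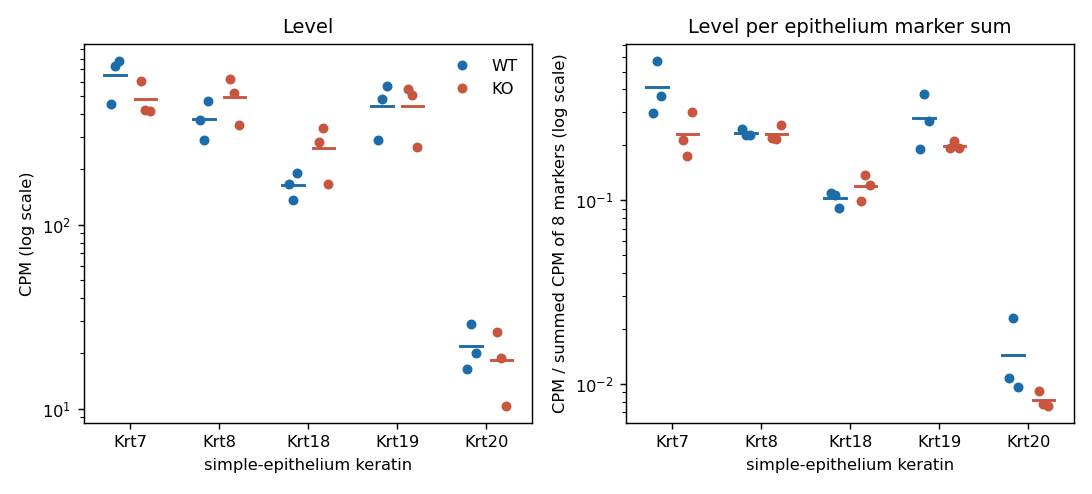
The 5 simple-epithelium keratins in WT and KO lesions, as CPM (left) and as CPM divided by the summed CPM of 8 epithelium markers (right), both on log axes. Points are lesions and lines are means of 3. Krt8 lies between 0.215 and 0.255 on the right in all 6 lesions, while Krt20 separates the groups there.

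Stratified keratins were low in 5 lesions and higher in WT replicate 2, in which Krt5 carried most of the sum. The 18 genes summed to 34.7, 178 and 42.7 CPM in WT against 27.2, 44.5 and 38.3 CPM in KO lesions. Krt5 (ENSMUSG00000061527.8, chromosome 15 from 101707070 to 101712898), the type II keratin of basal cells, was 99.2 CPM in WT replicate 2, from 4409 counts, and 0.0397 to 0.25 CPM in the other 5 lesions, from 2 to 12 counts. It held 55.7% of the stratified sum in that lesion. Krt5 did not pass the filter on low counts, which asks for expression in as many libraries as a group holds, and so has no test in the main fit. Without the filter its log2 fold change was -7.69 (SE 2.83), past the unadjusted threshold, with nearly all its counts in WT replicate 2. Its type I partner Krt14 (ENSMUSG00000045545.9) did not follow to the same extent, with 1.73, 5.47 and 1.20 CPM in WT against 1.02, 0.596 and 2.79 CPM in KO lesions (log2 fold change -0.93, SE 0.81, adjusted p = 0.583 by edgeR). Per kilobase, Krt5 was 14.0 times Krt14 in WT replicate 2. Krt15 (ENSMUSG00000054146.9), another type I keratin of basal cells, was 0.213, 4.95 and 0.726 CPM in WT against 0.719, 7.55 and 0.333 CPM in KO lesions, and was therefore high in 1 lesion of each group. Without Krt5 the stratified sum was 34.6, 79.0 and 42.6 CPM in WT against 27.0, 44.5 and 38.1 CPM in KO lesions, and WT replicate 2 remained the highest. The 8 markers of stratified epithelium, none of which was at 0 in every library, summed to 198, 334 and 364 CPM in WT against 367, 311 and 219 CPM in KO lesions. Perp (127 to 285 CPM) and Sfn (30.1 to 144 CPM) carried that sum, and the less abundant Trp63 (19.4 CPM), Dsg3 (8.58 CPM) and Col17a1 (11.3 CPM) were highest in WT replicate 2.

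Of the mucosal pair, Krt4 was higher in KO lesions at the unadjusted threshold and Krt13 did not pass. Krt4 (ENSMUSG00000059668.7, chromosome 15 from 101918535 to 101924735) was 0.256, 0.090 and 0.171 CPM in WT, from 12, 4 and 8 counts, and 1.12, 1.59 and 1.54 CPM in KO lesions, from 64, 80 and 74 counts. All KO lesions lay above all WT lesions, and the KO lesions were 8.10-fold higher (log2 fold change 3.02, SE 0.46, adjusted p = 0.321 by edgeR). The level was low in both groups. Its type I partner Krt13 (ENSMUSG00000044041.5) was 0.939, 0.810 and 5.38 CPM in WT against 5.65, 7.95 and 1.08 CPM in KO lesions, and each group held high and low lesions (log2 fold change 1.04, SE 1.00, adjusted p = 0.620). Without WT replicate 3 the log2 fold change of Krt13 was 2.45 and passed the unadjusted threshold.

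Among the keratins linked to wounding, Krt6a and Krt6b were lower in KO lesions at the unadjusted threshold, Krt17 did not pass, and Krt16 was hardly counted. Krt6b (ENSMUSG00000023041.8, chromosome 15 from 101676023 to 101680287) was 2.35, 8.96 and 6.04 CPM in WT against 0.263, 0.477 and 0.979 CPM in KO lesions, with the lowest WT lesion above the highest KO lesion (log2 fold change -3.33, SE 0.71, adjusted p = 0.321 by edgeR). Krt6a (ENSMUSG00000058354.8, chromosome 15 from 101689910 to 101694307) was 3.20, 15.8 and 7.18 CPM in WT against 2.23, 3.46 and 1.35 CPM in KO lesions, where WT replicate 1 fell inside the KO range (log2 fold change -1.89, SE 0.66, adjusted p = 0.328). Krt6a was no longer past the unadjusted threshold without WT replicate 2 (log2 fold change -1.14), without KO replicate 1 (-1.86) or without KO replicate 3 (-1.62). These neighbouring genes are near copies, so reads could be split between them. Per kilobase Krt6a was 1.34, 1.73 and 1.16 times Krt6b in WT and 8.31, 7.11 and 1.36 times in KO lesions. Krt17 (ENSMUSG00000035557.10), a type I partner of KRT6, was 1.92, 0.788 and 3.12 CPM in WT against 3.40, 1.79 and 16.5 CPM in KO lesions, and its log2 fold change of 1.90 (SE 0.95, adjusted p = 0.380) rested on KO replicate 3, without which it was 0.42. Without KO replicate 2 it was 2.36 and past the unadjusted threshold. Krt16 did not exceed 0.214 CPM in any lesion.

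Of the 9 epidermal keratins, Krt80 and Krt10 reached 1 CPM. Krt80 (ENSMUSG00000037185.10, chromosome 15 from 101347444 to 101370162), a type II keratin that is found in many epithelia near desmosomes, was the most abundant stratified keratin in 4 lesions by CPM. It was 21.2, 38.0 and 15.7 CPM in WT against 9, 18.0 and 11.0 CPM in KO lesions, and KO replicate 2 lay above WT replicate 3 (log2 fold change -0.98, SE 0.41, adjusted p = 0.344 by edgeR). Without WT replicate 2 its log2 fold change was -0.54, and it passed the unadjusted threshold without WT replicate 3 (-1.25) or KO replicate 2 (-1.32). Krt10 (ENSMUSG00000019761.11), the type I keratin of the differentiating epidermis, varied little, at 2.37, 3.02 and 2.24 CPM in WT against 2.63, 2.26 and 1.96 CPM in KO lesions. Its type II partner Krt1 had 22 counts over all 6 libraries. Markers of the cornified layer were partly absent: Flg, Lce1a1 and Sprr1b were at 0 in every library, while Ivl was 13.7 CPM in WT replicate 2 and at most 0.437 CPM elsewhere. Others of that list were counted in every lesion, with Sprr1a at 10.5 to 108 CPM, Sbsn at 6.75 to 48.6 CPM and Tgm1 at 1.79 to 20.5 CPM. Sprr1a and Tgm1 were highest in WT replicate 2 and Sbsn in KO replicate 3.

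**Figure D3:**
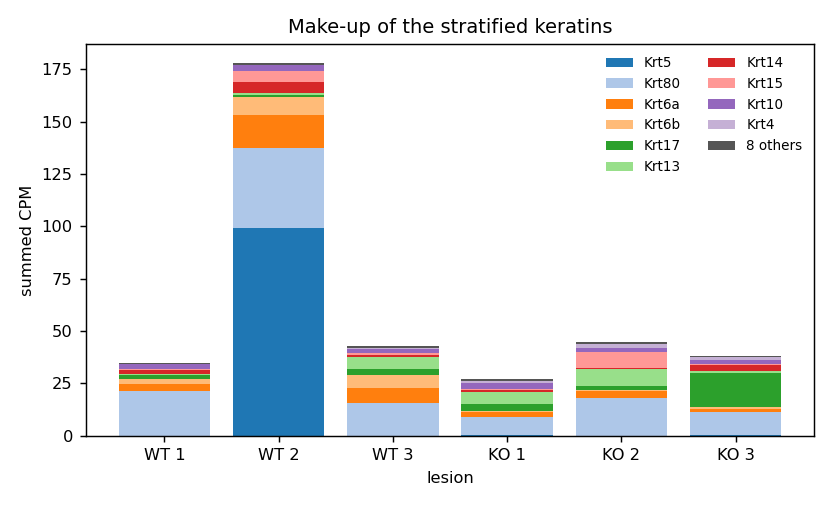
Summed CPM of the 18 stratified keratins in each lesion, split by gene. Krt5 fills 55.7% of the bar of WT replicate 2 (178 CPM), and Krt17 stands out in KO replicate 3 with 16.5 CPM.

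The 4 uroplakins were not counted as a set outside WT replicate 2. Upk3a (ENSMUSG00000022435.7, chromosome 15 from 85017141 to 85022547) had 2172 counts, or 48.9 CPM, in WT replicate 2 and 0 counts in each of the other 5 libraries, where 3 counts, the limit that a count of 0 allows, correspond to 0.0524 to 0.0653 CPM. This limit covers counting error only. It takes each count as 1 independent molecule, which need not hold here, since most low counts were even. Upk2 (ENSMUSG00000041523.4, chromosome 9 from 44452715 to 44454976), the partner of UPK1A, was 0.598, 18.9 and 0.299 CPM in WT against 0.421, 0.596 and 0.167 CPM in KO lesions. Its log2 fold change of -4.05 (SE 1.70, adjusted p = 0.343 by edgeR) was -0.18 without WT replicate 2. It passed the unadjusted threshold without WT replicate 1 (-4.59) or WT replicate 3 (-4.64). Upk1a (ENSMUSG00000006313.6, chromosome 7 from 30603092 to 30612847) was 0.598, 56.5 and 1.03 CPM in WT against 3.51, 91.0 and 0.500 CPM in KO lesions. It was thus high in 1 lesion of each genotype, and in KO replicate 2 it was high while Upk2 stayed below 1 CPM and Upk3a at 0. The log2 fold change was 0.71 (SE 2.20, adjusted p = 0.890), and it ran from -3.26 without KO replicate 2 to 5.28 without WT replicate 2.

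Upk1b (ENSMUSG00000049436.6, chromosome 16 from 38773184 to 38800328) was present in all lesions, at 31.1, 86.5 and 5 CPM in WT against 2.98, 28.8 and 13.3 CPM in KO lesions (log2 fold change -1.45, SE 1.14, adjusted p = 0.548 by edgeR). The groups overlapped widely, and the log2 fold change moved to -0.27 with WT replicate 2 left out and to -2.33 with KO replicate 2 left out. The 8 mesothelium markers (Msln and Wt1 among them, none at 0 in every library) summed to 348, 289 and 84.9 CPM in WT against 57.2, 360 and 209 CPM in KO lesions. Upk1b was lowest in the same lesions as this sum, WT replicate 3 and KO replicate 1, and divided by Msln it was 1.89 in WT replicate 2 and 0.341 to 0.726 in the other lesions. Upk3b, which the choice by symbol leaves out and which mesothelium also makes, was 105, 88.4 and 17.6 CPM in WT against 14.9, 102 and 55.7 CPM in KO lesions. The part of mesothelial tissue in the level of Upk1b was not tested.

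WT replicate 2 also held other transcripts of the urothelium list. Of the 8 urothelium markers, 5 were highest there: Aqp3 (57.2 CPM against 0.516 to 1.02 CPM), Psca (31.0 CPM against 0 to 2.23 CPM), Foxa1 (11.4 CPM against 0.0397 to 2.01 CPM), Gata3 (10.9 CPM against 0.897 to 1.71 CPM) and Grhl3 (8.4 CPM against 0 to 0.477 CPM). The others were highest elsewhere, Pparg in KO replicate 3, Cyp2f2 in KO replicate 2 and Upk3b in WT replicate 1. Those highest values were 52.2, 20.5 and 105 CPM, against 38.5, 8.96 and 88.4 CPM in WT replicate 2. The whole urothelium list summed to 130, 255 and 41.0 CPM in WT against 36.1, 147 and 117 CPM in KO lesions. None of its genes was at 0 in every library. Of the 8 stratified epithelium markers, 5 were highest elsewhere: Sfn in WT replicate 3, Perp, Serpinb5 and Dsc3 in KO replicate 1 and Lgals7 in KO replicate 2. Trp63, the transcription factor of basal cells, was 7.86, 19.4 and 4.10 CPM in WT against 0.702, 1.11 and 3.63 CPM in KO lesions, and all WT lesions lay above all KO lesions (log2 fold change -2.53, SE 0.85, adjusted p = 0.328 by edgeR). There were 27 genes with at least 10 CPM in WT replicate 2 and under 1 CPM in every other lesion, of which 3 were members (Krt5, Upk3a and Upk2), 13 were immunoglobulin variable genes, and others were Ivl, Snx31 and Prom2. Of the 25 members tested, 9 (36%) had their highest value in WT replicate 2, against 24.2% of all genes tested. The neutrophil markers were highest in the same lesion, and how far any of these tissues accounts for its keratins was not tested.

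**Figure D4:**
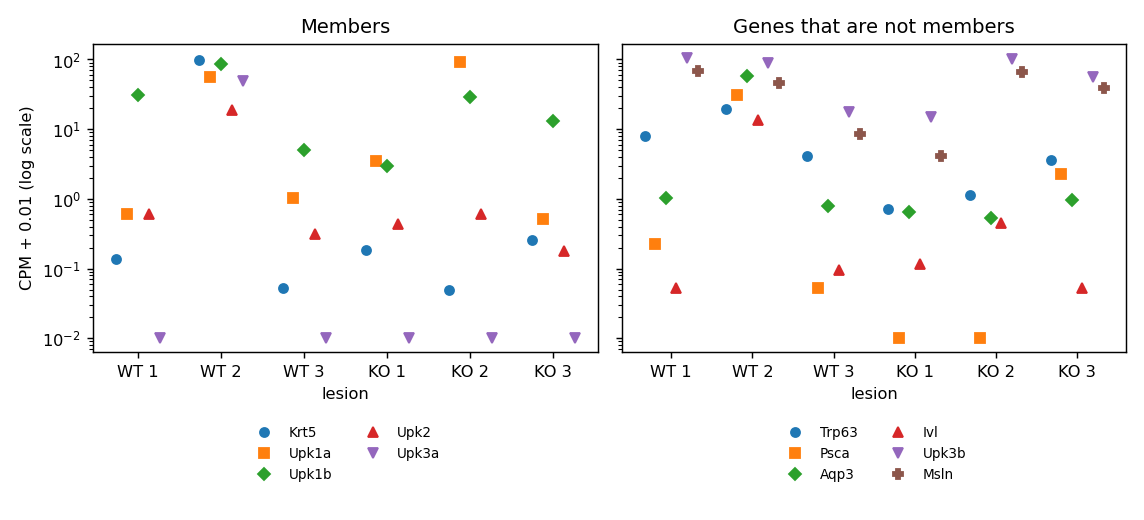
Level of Krt5 and the 4 uroplakins (left) and of 6 genes that are not members (right) in each lesion, as CPM + 0.01 on a log axis, with 1 symbol for each gene. Krt5, Upk2 and Upk3a stand above 10 CPM in WT replicate 2 only, together with Psca, Aqp3 and Ivl, while Upk1b, Upk3b and Msln are lowest in WT replicate 3 and KO replicate 1.

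Keratins of the root sheath and hair were mostly absent. Of these 24 genes, 11 had no count in any library, 17 had fewer than 10 counts in all, and 0 of the 9 root sheath genes and 3 of the 15 hair genes were tested. The exceptions were a pair of type II genes. Krt84 (ENSMUSG00000044294.9, chromosome 15 from 101525026 to 101532820), known from the hair cuticle and the tongue, was 12.6, 12.4 and 69.7 CPM in WT against 29.5, 16.6 and 6.29 CPM in KO lesions (log2 fold change -0.85, SE 0.87, adjusted p = 0.641 by edgeR), with the highest value in WT replicate 3. Krt87 (ENSMUSG00000047641.9, chromosome 15 from 101431038 to 101438804) was 13.4, 7.09 and 21.2 CPM in WT against 21.5, 18.6 and 6.44 CPM in KO lesions (log2 fold change 0.16, SE 0.56, adjusted p = 0.907). Both were lower in KO replicate 3 than in any other lesion. Krt87 lies 724 bases from the end of Krt7 and is read from the opposite strand, and whether the counting used strand is not given in the sources used here.

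Of the remaining 7 keratins, Krt222 and Krt23 reached 1 CPM. Krt222 (ENSMUSG00000035849.15, chromosome 11 from 99232761 to 99244085), an atypical short member at the edge of the type I cluster, was 2.82, 1.28 and 1.41 CPM in WT, from 132, 57 and 66 counts, and 0.158, 0.0795 and 0.834 CPM in KO lesions, from 9, 4 and 40 counts. All WT lesions lay above all KO lesions (log2 fold change -2.36, SE 0.91, adjusted p = 0.332 by edgeR), but the unadjusted threshold was lost in 5 of the 6 fits that left out 1 lesion, with log2 fold changes of -2.57 to -1.89. It held without KO replicate 3, where the log2 fold change was -3.91. Krt23 (ENSMUSG00000006777.8), a type I keratin, was 0.769, 5.72 and 0.897 CPM in WT against 0.140, 1.35 and 2.13 CPM in KO lesions, with its highest value in WT replicate 2.

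Genes for the proteins that anchor keratin filaments lay mostly above 0 on the log2 fold change scale, as the epithelium markers did, and 1 of them passed the threshold. Of 20 genes of desmosomes and of the linkers between keratin filaments and the membrane, 14 were tested. Of these, 0 passed as higher and 1 as lower, against 3.1% and 5.85% of all genes. A log2 fold change above 0 was found for 12 and below 0 for 2, where 51.4% of all genes were above 0. The median was 0.41, against 0.57 for the 8 epithelium markers and 0.01 for all genes. The 1 lower gene was Plec, the linker plectin. It was 529, 383 and 447 CPM in WT against 215, 190 and 224 CPM in KO lesions (log2 fold change -1.11, SE 0.18, adjusted p = 0.321 by edgeR). The lowest WT lesion lay above the highest KO lesion. Dsp, the desmosomal protein that binds keratin, was 145, 123 and 168 CPM in WT against 242, 223 and 131 CPM in KO lesions (log2 fold change 0.45, SE 0.27, adjusted p = 0.435), and the 6 lesions stood in the same order as for Krt8.

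**Figure D5:**
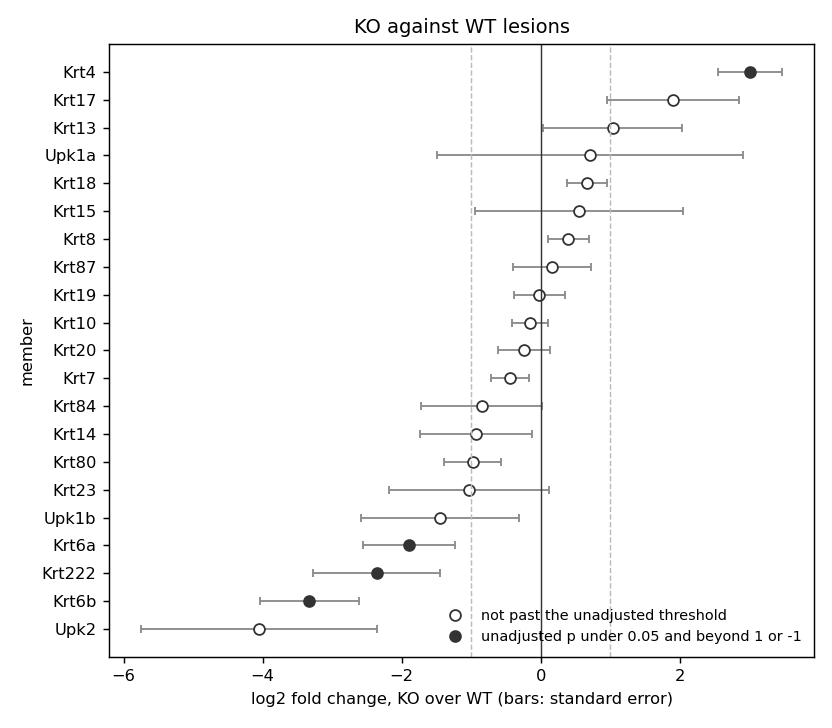
Log2 fold change of KO over WT lesions for the members with a mean of at least 1 CPM that were tested, with standard errors from edgeR's quasi-likelihood fit. Filled points are past the unadjusted threshold (Krt4, Krt6a, Krt6b and Krt222), and the simple keratins lie between -0.44 and 0.67.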

How the data were processed

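RNA of 6 lesions was sequenced from TruSeq Stranded mRNA libraries. The authors deposited raw counts per gene, as whole numbers, for 56884 genes. The submitters' processing notes list Trimmomatic, featureCounts and DESeq2 with GRCm39, while the study's methods name GRCm38. The aligner and the annotation release are not given in the sources used here. Of the identifiers, 51948 were found in GENCODE M21 (GRCm38) without their version and 35 with it, so the gene models counted may not have exactly its coordinates and lengths. In each library 85.9% to 87.7% of the counts from 1 to 199 were even, so a count need not be 1 independent molecule, and the tests rest on the spread between lesions.

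The main test was the quasi-likelihood test of edgeR (version 4.0.16, R version 4.3.3) on these counts, with genotype alone in the model, after filterByExpr (18177 genes left) and TMM scaling. Adjusted p-values follow Benjamini and Hochberg over all genes tested, each standard error is |log2 fold change| over √F, and CPM values carry no prior count. Levels per kilobase used the longest principal transcript. Groups follow the genotype and replicate number in the labels, and the methods give 3 donors per group. Sums and ratios over members were not tested.

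The members and lists were chosen with earlier results of these data known. Named with values were the 5 simple keratins, every other member with a mean of at least 1 CPM in WT or KO, and every member past the unadjusted threshold. The uterine, urothelial, mesothelial and other marker lists held 8 to 20 genes each. Krt85 was listed but is not analysed here. The fit was tested on simulated counts for this comparison, in which 200 genes with a mean above 1 CPM were given a log2 fold change of 2. It recovered 93% at an unadjusted p-value under 0.05 with an absolute log2 fold change above 1. After adjustment it recovered 37.5%, with 4 false calls, and 82.5% for a change of 3. Members with lower means were outside this setting. Alternatives were DESeq2 size factors, upper quartile scaling, no filter beyond 1 count, a minimum of 10 counts per library, the Wald test of DESeq2 (version 1.42.0), a replicate block, and each lesion left out. Sums per epithelium markers were added after the data were seen. Replicate numbers were not treated as pairs.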

Additional observations from a re-analysis of the deposited data

How the results depend on the processing

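The number of members higher in KO lesions was 1, and it was 0 when at least 10 counts were required in every library, which removed Krt4, and 2 with DESeq2's Wald test (Krt17 joined). Without 1 lesion it ran from 1 to 4, the latter without WT replicate 3. The number of members lower was 3, and it was 6 without the filter on low counts, where Krt5, Upk2 and Krt78 joined. Without 1 lesion it ran from 1 (without WT replicate 2 or KO replicate 1) to 5 (without WT replicate 3). The numbers over all genes moved too. Lower genes were 1064 of 18177 in the main fit and 1652 of 30336 without the filter. They were 1108 of 18923 without WT replicate 2, 551 of 19002 without KO replicate 1 and 1178 of 18875 without WT replicate 3. Higher genes were 564 in the main fit, 424 of 16142 with the minimum of 10 counts and 421 of 18875 without WT replicate 3. Krt4 and Krt6b stayed past the unadjusted threshold with any lesion left out, with log2 fold changes of 2.72 to 3.41 and -3.96 to -2.87. The log2 ratio of the summed simple keratins, 0.03, was -0.41 when divided by the epithelium markers, an alternative chosen after seeing the data, and -0.14 to 0.23 without 1 lesion. For the summed stratified keratins it was -1.22, and -0.07 without WT replicate 2 (-1.59 to -0.07 without any 1 lesion). The summed uroplakins gave -0.82, with -2.99 without KO replicate 2 and 1.29 without WT replicate 2. With upper quartile scaling, which moved the median of all genes from 0.01 to 0.11 and the numbers of genes higher and lower from 564 and 1064 to 716 and 907, Krt19 went from -0.02 to 0.08. The direction turned without some lesion for Krt19 (-0.25 to 0.25), Krt20 (-0.57 to 0.05), Krt14 (-1.79 to 0.01), Krt15 (-1.89 to 2.60), Krt23 (-1.72 to 0.53), Krt84 (-1.46 to 0.44), Krt87 (-0.16 to 0.56) and Upk1a (-3.26 to 5.28). Of 120 other values of single members under other scalings, filters and tests, 116 kept direction and side of the threshold, 3 passed it newly and 1 was that of Krt19. The cause was not tested for any of these beyond what the setting itself removes.

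Lesions with the same replicate number did not deviate together (r = 0.03, -0.15 and -0.20 across genes), so the numbers were not taken as pairs. With a replicate block in the model, 2 members were higher and 3 lower, and 372 and 573 of all genes. Depth limits the members below 1 CPM, such as Krt4 in WT lesions with 4 to 12 counts.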

Other observations

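The keratin-associated proteins, which cross-link hair keratins in the hair shaft, were nearly silent: of 58 Krtap genes, 54 had no count in any library, the highest total over the 6 libraries was 60 counts, and 0 were tested. The hair keratins Krt84 and Krt87 were thus counted without them.

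Upk3bl, a gene related to Upk3b that is no member, was 40.0, 5.18 and 8.61 CPM in WT against 78.1, 46.4 and 23.9 CPM in KO lesions (log2 fold change 1.47, SE 0.86, adjusted p = 0.431 by edgeR). Its lowest value was in WT replicate 2, the lesion in which Upk1a, Upk1b, Upk2 and Upk3a were counted together.

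KO replicate 2, the other lesion with high Upk1a, held 66 genes with at least 10 CPM that were under 1 CPM in every other lesion. No keratin or uroplakin was among them. Genes of the motile cilium were, chosen here after their values were seen: Dnah5 at 64.6 CPM, Ccdc40 at 27.6 CPM, Tekt1 at 13.6 CPM and Ccdc39 at 12 CPM. WT replicate 3 held 28 such genes, and WT replicate 1, KO replicate 1 and KO replicate 3 held 0.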
